A study of Rattus norvegicus with 4 samples.

Results

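The nuclear-encoded genes of the mitochondrial respiratory chain and ATP synthase were followed across the cell classes of a limb muscle and of the eye muscles of rats. The set was chosen by symbol: names that begin with Nduf (complex I), Uqcr (complex III), Cox4 to Cox8 (complex IV) or Atp5 (ATP synthase, complex V and its inhibitor), and Sdha, Sdhb, Sdhc and Sdhd (complex II). This gave 97 rows of the 25399 in the count tables, under 93 symbols, because Cox6b1, Uqcrb, Ndufa10l1 and Ndufv3 each stand for 2 rows that may be copies of 1 gene and can share or split reads. The rows comprise 30 accessory subunits, 8 assembly factors and 7 core subunits of complex I, Ndufa4 and Ndufa4l2, 4 genes of complex II, 9 of complex III, 20 of complex IV and 17 of complex V. The rule uses names only and no measured level, though the set was chosen with earlier results of these data known.

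The 4 single-cell libraries came from total cells of enzymatically digested muscle of rats aged 12 months, 1 library each for the tibialis anterior (TA, a limb muscle) labelled DMD, TA labelled wild-type (WT), the extraocular muscles (EOM, the muscles of eye movement) labelled DMD, and EOM labelled WT. DMD stands for Duchenne muscular dystrophy, the loss of the membrane-linked muscle protein dystrophin, which is known to spare the extraocular muscles relatively. The sources used here give neither strain, sex, number of animals nor the way the DMD state was produced. In every sample the disease state field states the opposite of the sample title. Groups follow that field, and reading the titles would turn each DMD over WT direction by construction.

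The respiratory chain passes electrons from NADH through complex I, or from succinate through complex II, to ubiquinone, then through complex III and cytochrome c to complex IV, which reduces oxygen. The proton gradient built on the way drives ATP synthesis by complex V. Most subunits are encoded in the nucleus and a few in mitochondrial DNA, and some complex IV subunits have muscle-restricted or tissue-restricted isoforms. Skeletal muscle fibres are among the tissues richest in mitochondria, oxidative fibres more so than fast glycolytic ones.

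After filtering, 7964, 2083, 2261 and 1249 cells remained in TA labelled DMD, TA labelled WT, EOM labelled DMD and EOM labelled WT, with median counts of 1221.5, 2482, 4486 and 3654 unique molecular identifiers (UMIs) per cell. Cell classes were rebuilt from markers as "X-like" and are not the authors' own. Levels are UMI counts per 1000000 UMIs (CPM) summed over a class in 1 library, and with 1 library per group no test was run and no difference has a replicate check. Ranges in parentheses are 95% counting intervals. They leave out the spread between animals, digestions and cells, since they treat each UMI as independent. In the myofibre-like class Dmd, the dystrophin gene, had 19 UMIs in TA labelled DMD, 1 in TA labelled WT, 3 in EOM labelled DMD and 0 in EOM labelled WT. In mural-like cells Dmd had 36.0 CPM in TA labelled DMD and 62.6 CPM in TA labelled WT, and 37.4 CPM in EOM labelled DMD and 60.3 CPM in EOM labelled WT. In satellite-like cells it had 71.9 CPM in TA labelled DMD, 126 in TA labelled WT, 72.3 in EOM labelled DMD and 66.9 in EOM labelled WT. Over all analysed cells these libraries had 25.4, 29.6, 21.0 and 26.8 CPM. Its direction was thus not the same in every class. Where the gene is altered is not in the labels, and 3' tags can lie outside that part, so these counts do not check the labels. All levels are shares of a class total, so lower RNA of 1 gene and more RNA of others cannot be told apart.

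Of the rows, Ndufa1 and Cox7b2 were at 0 in all analysed cells, and Cox6c-ps1, Cox8c, Cox7a1, Atp5pb and the lesser Ndufa10l1 row (ENSRNOG00000062245) had under 100 UMIs in all. A row at 0 in 3' tag data can reflect the annotation as well as the gene. No row is named Cox7a2, so the widely expressed partner of Cox7a1 was not analysed under that name. A row named Cox7a2l2 had 23676 UMIs, and whether it measures that partner was not settled. The 90 rows with at least 100 UMIs, Cox7a2l2 among them, were measured. In the comparisons of the myofibre-like, mural-like, satellite-like and endothelial-like classes, 73 to 83 rows passed the limits. A row passed with a mean of at least 50 CPM over the 2 libraries compared and at least 20 UMIs in them together.

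The members made up far more of the RNA of myofibre-like cells than of any other named class. These cells are led by Acta1, skeletal muscle actin. Members held 6.26% (6.15 to 6.38) of their UMIs in TA labelled DMD (102 cells), 13.5% (13.3 to 13.6) in TA labelled WT (130 cells), 13.5% (13.4 to 13.6) in EOM labelled DMD (154 cells) and 13.3% (13.1 to 13.6) in EOM labelled WT. The last library had 37 such cells, under the minimum of 50 set for a comparison, so its values are shown as a description. TA labelled DMD thus stood apart from the other 3 libraries, which lay close together. An unnamed Myog-led cluster of 42 cells, all of TA labelled DMD, held 4.22% (4.09 to 4.35), nearer to the myofibre-like cells of that library.

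Mural-like cells, the contractile cells of small vessels, came next in all libraries but TA labelled DMD, with 2.21% in TA labelled DMD, 3.17% in TA labelled WT, 2.81% in EOM labelled DMD and 3.38% in EOM labelled WT. Satellite-like cells, named from markers of the muscle stem cells, held 2.54%, 2.81%, 2.15% and 2.24% in the same libraries. In TA labelled DMD 237 of these 300 cells lay in a Ppp1r14b-led cluster, whose leading genes also include Myog, Myf5, Cenpf and Myod1. Whether those cells are stem cells or later stages was not tested. Endothelial-like cells held 1.90%, 2.04%, 1.78% and 1.81%. Most immune, fibroblast, tendon and Schwann classes lay near 2%, with FAP/fibroblast-like cells at 1.78% in TA labelled DMD, 1.62% in EOM labelled DMD and 1.59% in EOM labelled WT. Across the 12 classes compared, 80 of the 97 rows had their highest mean level in myofibre-like cells and 7 in mural-like cells. Of the 75 rows with at least 50 CPM in the median class, 70 were highest in myofibre-like cells, and mural-like cells stood second for 33. Class means were taken over the libraries with at least 50 cells of the class. For dendritic-like, NK cell-like, lymphatic endothelial-like and neutrophil-like cells that was TA labelled DMD alone, so these ranks mix class and library. The excess was not even. Among the 75 rows, the median row was 2.29 log2 units higher in its top class than in the median class. Over all 97 rows, the excess reached 8.50 for Cox6a2, 8.11 for Cox8b, 5.42 for Cox4i2, 5.14 for Ndufa4l2 and 3.43 for Cox7b.

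**Figure D1:**
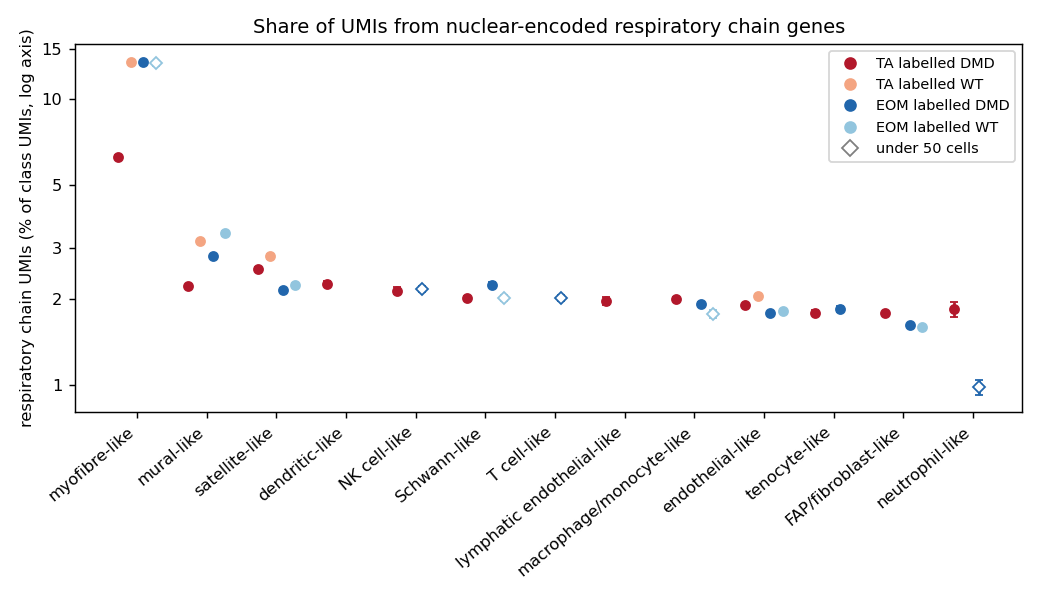
Share of each class's UMIs that came from the respiratory chain rows, in percent on a log axis, by library; bars are exact 95% counting intervals and open diamonds mark classes with under 50 cells in that library. Myofibre-like cells stand far above the other named classes, at 6.26% in TA labelled DMD and 13.3% to 13.5% in the other 3 libraries. Erythroid-like cells, whose RNA is rich in hemoglobin, and unnamed clusters are left out.

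In the myofibre-like class of TA, nearly the whole chain was lower in the library labelled DMD. Of 97 rows 83 passed the limits, and 73 were at least 1.5-fold lower and 1 higher in TA labelled DMD than in TA labelled WT, where 28.9% of all 1726 genes were lower and 23.6% higher. Their median log2 ratio was -1.16, against -0.04 over all genes. The medians of the members' own counting bounds were -1.55 and -0.74. At a 2-fold limit 52 members were still lower, where 17% of all genes were. A log2 ratio here has a prior of 10 CPM on both sides, and the members shown singly in this class were chosen after their values were seen, apart from the Sdh genes and the isoforms.

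The core of complex I had the lowest median of the complexes. All 7 nuclear core subunits, those needed for catalysis, were lower, with a median of -1.41 and a summed level of 1899 CPM in TA labelled DMD against 5631 CPM in TA labelled WT. Ndufv1, the subunit that binds NADH, stood at 91.6 CPM in TA labelled DMD, 485 in TA labelled WT, 339 in EOM labelled DMD and 423 in EOM labelled WT. It was 5.29-fold lower (3.08 to 9.77) in TA labelled DMD than in TA labelled WT. Among the accessory subunits 26 of 27 were lower, with a median of -1.18. Ndufb5 and Ndufb4, of the membrane arm, had 373 and 299 CPM in TA labelled DMD, against 1502 and 1164 CPM in TA labelled WT. Of the 5 assembly factors that passed, which help build the complex and are not part of it, 3 were lower. Ndufaf3 was not among them, at 104 CPM in TA labelled DMD and 90.9 CPM in TA labelled WT.

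Complex II, which is also an enzyme of the citric acid cycle and has no mitochondrially encoded subunit, followed the same pattern. Sdhb, the iron-sulfur subunit, had 385 CPM in TA labelled DMD, 1160 in TA labelled WT, 998 in EOM labelled DMD and 1016 in EOM labelled WT. It was 3.02-fold lower (2.28 to 4.03) in TA labelled DMD than in TA labelled WT. The membrane anchors Sdhc and Sdhd were 2.13-fold (1.56 to 2.94) and 2.85-fold (1.97 to 4.24) lower. For Sdha, the flavoprotein subunit, the interval included no difference (1.64-fold lower, 0.828 to 3.42), at 79.4 CPM in TA labelled DMD and 130 CPM in TA labelled WT.

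All 9 rows of complex III were lower, with a median of -1.07. Uqcrfs1, the Rieske iron-sulfur protein, had 446 CPM in TA labelled DMD, 1619 in TA labelled WT, 1279 in EOM labelled DMD and 1488 in EOM labelled WT, 3.63-fold lower (2.82 to 4.73) in TA labelled DMD than in TA labelled WT. In complex V 14 of 16 rows were lower, with a median of -1.13. Atp5f1b, the catalytic beta subunit, had 971 CPM in TA labelled DMD, against 2459 CPM in TA labelled WT. Atp5mc2, 1 of several genes that encode the same rotor ring subunit c, had 1527 CPM in TA labelled DMD and 1528 CPM in TA labelled WT. Atp5if1, which inhibits the synthase when it runs backwards, had 311 CPM in TA labelled DMD and 407 CPM in TA labelled WT, and its interval included no difference (1.31-fold lower, 0.919 to 1.87).

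Complex IV was the least even. Of 14 rows that passed, 9 were lower and 1 was higher, with a median of -0.94. Cox5b and Cox7b had 1295 and 1661 CPM in TA labelled DMD, against 3753 and 3792 CPM in TA labelled WT. Cox4i1, the common form of subunit 4, had 2253 CPM in TA labelled DMD and 3272 CPM in TA labelled WT, 1.45-fold lower (1.28 to 1.65). Cox6a1 was the member called higher, but on 29 UMIs in TA labelled DMD and 26 in TA labelled WT, and its interval included no difference (1.57-fold, 0.895 to 2.78). Ndufa4, once assigned to complex I and now to complex IV, had 1319 CPM in TA labelled DMD, 3181 in TA labelled WT, 2880 in EOM labelled DMD and 2529 in EOM labelled WT.

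Between the libraries labelled DMD the members were higher in EOM than in TA. Of 81 rows that passed, 71 were at least 1.5-fold higher and 0 lower in EOM labelled DMD, where 31.1% of all 1784 genes were higher and 17.8% lower. The median log2 ratio was 1.12, with medians of the counting bounds of 0.83 and 1.59, against 0.20 over all genes. This comparison uses the same TA labelled DMD library as the one above, so neither is separate evidence from the other. Complex medians ran between 0.98 (complex IV) and 1.32 (complex I core), with 0.74 for the 3 assembly factors that passed. The lesser Uqcrb row (ENSRNOG00000032204) had the lowest ratio, -0.50.

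**Figure D2:**
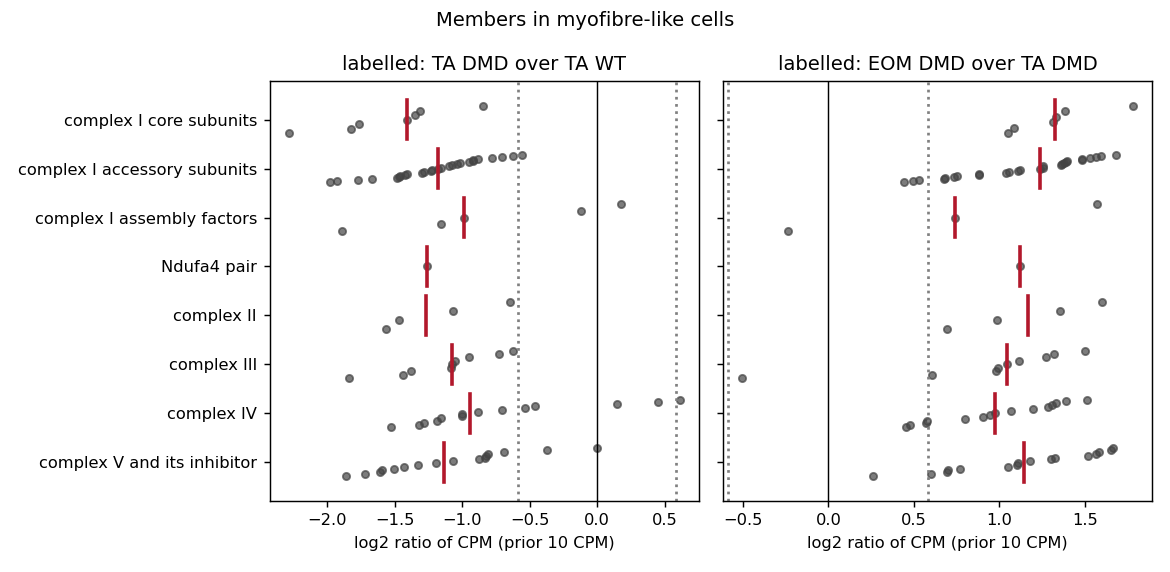
Log2 ratio of CPM for each member that passed the limits in myofibre-like cells, by complex, for TA labelled DMD over TA labelled WT (left) and EOM labelled DMD over TA labelled DMD (right); red bars are medians and dotted lines mark 1.5-fold. Nearly all points lie below 0 on the left, with a median of -1.16, and above 0 on the right, with a median of 1.12.

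The comparisons with the 37 myofibre-like cells of EOM labelled WT had medians near 0. EOM labelled DMD over EOM labelled WT had a median of -0.03 over 83 members, with 1 higher and 6 lower, where 12.2% of all genes were higher and 16.8% lower. EOM labelled WT over TA labelled WT had a median of -0.03 over 82 members, with 4 higher and 3 lower, where 26.1% of all genes were higher and 17.7% lower.

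Cell by cell, the low share in TA labelled DMD was shared by most cells. The median cell held 5.99% member UMIs in TA labelled DMD, 12.9% in TA labelled WT, 13.2% in EOM labelled DMD and 13.0% in EOM labelled WT. Of the 102 cells of TA labelled DMD, 97 were under the median cell of TA labelled WT and 89 under its lower quartile of 10.1%. The ranges overlapped, from 1.52% to 16.4% in TA labelled DMD and from 4.09% to 20.9% in TA labelled WT. Cells of 1 library share their source, so these counts describe the libraries and not the conditions. The median depth of myofibre-like cells was 970.5 UMIs in TA labelled DMD, 1186 in TA labelled WT, 1519 in EOM labelled DMD and 1834 in EOM labelled WT. Each was under the median of all analysed cells of its library. Whether these barcodes are whole cells or fragments of fibres was not tested. The largest cell of TA labelled DMD held 11.3% of the class's UMIs there, and without the largest cell of each library the share was 6.59%, 13.4%, 13.1% and 13.6% in TA labelled DMD, TA labelled WT, EOM labelled DMD and EOM labelled WT.

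**Figure D3:**
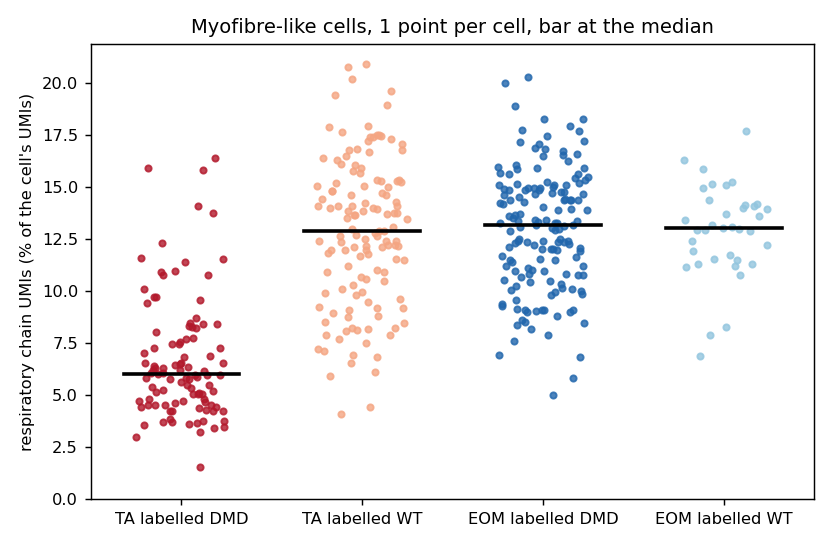
Share of each myofibre-like cell's UMIs that came from the respiratory chain rows, in percent, by library; each point is 1 cell and the bar is the median. Most cells of TA labelled DMD lie under the bulk of the other libraries, with a median of 5.99% against 12.9% in TA labelled WT, and the ranges overlap.

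Other genes moved with the members in this class, and their part in the difference was not tested. Of 6 genes of slow or oxidative fibres, Mb (myoglobin), Tnnc1, Myl2, Myl3 and Myh7 were lowest in TA labelled DMD, but not all of them set that library alone apart. Mb had 5325 CPM there, 22006 in TA labelled WT, 21815 in EOM labelled DMD and 30197 in EOM labelled WT. Tnnc1, the slow troponin C, had 397, 4177, 3156 and 2565 CPM in the same libraries. Myl3, a slow myosin light chain, was low in EOM as well, with 379, 9700, 493 and 871 CPM. Myh7, the slow myosin heavy chain, had 0 UMIs in TA labelled DMD (a limit of 3 counts is 18.3 CPM there), 939 CPM in TA labelled WT, 96.2 in EOM labelled DMD and 24.2 in EOM labelled WT, the last from 2 UMIs. Myh7 was thus low in the EOM libraries as well, and what this means for the member share was not tested. The sixth gene, Atp2a2, the slow-fibre calcium pump, had 110 CPM in TA labelled DMD, 151 in TA labelled WT, 33.7 in EOM labelled DMD and 84.7 in EOM labelled WT, and was lowest in EOM labelled DMD. Myh4, the fast type IIb myosin heavy chain, had 4861 CPM in TA labelled DMD, 2601 in TA labelled WT, 1856 in EOM labelled DMD and 1960 in EOM labelled WT. Of the other fibre markers, Mylpf had 46393, 22503, 25279 and 21003 CPM in the same libraries. Pvalb had 2852, 710, 2531 and 1936 CPM, so it was high in EOM as well. Among only the cells whose leading myosin was Myh4, members held 5.60% of UMIs in TA labelled DMD (57 cells), 13.9% in TA labelled WT (73 cells), 14.1% in EOM labelled DMD (67 cells) and 13.9% in EOM labelled WT (22 cells). The difference was thus as large within Myh4-led cells. The leading myosin was chosen only among Myh4, Myh7, Myh3, Myh8 and Myh6, since no row is named Myh1 or Myh2, other fast myosin heavy chains. Myh4-led cells can therefore still differ in fibre type, and its part was not tested.

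The filter on cells also differed in its reach. Barcodes with over 20% mitochondrial UMIs numbered 293 in TA labelled DMD, 1287 in TA labelled WT, 654 in EOM labelled DMD and 407 in EOM labelled WT. Among all barcodes left out, those with at least 5% fibre-marker UMIs numbered 26, 357, 187 and 98 in the same libraries. As a share of UMIs that are not mitochondrial, members held 4.54% (4.27 to 4.83) in these left-out barcodes of TA labelled DMD, 12.1% (11.7 to 12.4) in those of TA labelled WT, 16.1% (15.8 to 16.4) in those of EOM labelled DMD and 16.8% (16.3 to 17.4) in those of EOM labelled WT. TA labelled DMD was lowest on this summed share too. The median left-out barcode held 4.51% in TA labelled DMD, 4.17% in TA labelled WT, 10.7% in EOM labelled DMD and 13.8% in EOM labelled WT, so by barcode the TA libraries lay close together. Of these barcodes 1, 319, 135 and 83 had under 200 genes.

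Genes of the neighbouring pathways did not all follow the chain. In TA labelled DMD over TA labelled WT, fatty acid oxidation genes had the lowest median, -1.94, with 9 of 10 lower. Hadh, which oxidises hydroxyacyl-CoA, had 1 UMI in TA labelled DMD and 53 in TA labelled WT. Acadvl, for very long chains, had 4 and 45 UMIs. The median of the citric acid cycle genes was -1.06, with 6 of 9 lower, and Mdh2, malate dehydrogenase, was at -1.37. Glycolytic genes had a median of -0.49, with 4 of 10 lower, and Aldoa (0.04) and Ldha (-0.04) near 0, while Ldhb, the lactate dehydrogenase subunit of oxidative tissues, was at -3.25. Cytosolic ribosomal protein genes ran the other way, with 37 of 65 higher, 1 lower and a median of 0.63. With those genes left out of the totals the member median was -1.10 in place of -1.16. Mitochondrial ribosomal protein genes had a median of -0.74, with 30 of 54 lower. Cycs, the cytochrome c that links complexes III and IV, was at -1.59.

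The 13 mitochondrially encoded subunits did not move in step with their nuclear partners. In TA labelled DMD over TA labelled WT their median was -0.64, with 8 lower and 1 higher, and the lowest and highest examples were Mt-nd1 at -1.10 and Mt-nd6 at 0.95. Their share of myofibre-like UMIs was 3.92% in TA labelled DMD, 6.35% in TA labelled WT, 3.87% in EOM labelled DMD and 6.48% in EOM labelled WT. In EOM labelled DMD over TA labelled DMD, where the nuclear members had a median of 1.12, the mitochondrially encoded ones had a median of -0.08, with 2 of 12 lower and 0 higher. In EOM labelled DMD over EOM labelled WT, with under 50 cells in the second, the medians were -0.03 for nuclear members and -0.78 for mitochondrially encoded ones. The nuclear share thus set TA labelled DMD apart, while the mitochondrially encoded share was lower in both libraries labelled DMD. The limit of 20% mitochondrial UMIs acts on the second measure directly.

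The isoforms of complex IV separated the classes. Cox6a2 and Cox8b, the muscle forms of subunits 6a and 8, are among the genes that lead the Acta1-led cluster, so their high level there is a description. Cox6a2 had 3829 CPM in myofibre-like cells of TA labelled DMD, 6250 in TA labelled WT, 7385 in EOM labelled DMD and 6400 in EOM labelled WT. Cox8b had 2363, 5930, 5870 and 5130 CPM in the same libraries. In TA labelled DMD, Cox6a2 was 1.63-fold (1.49 to 1.80) and Cox8b 2.51-fold (2.24 to 2.82) lower than in TA labelled WT. For their widely expressed partners Cox6a1 and Cox8a the interval included no difference. Cox8a had 611 CPM in TA labelled DMD, 550 in TA labelled WT, 1757 in EOM labelled DMD and 1222 in EOM labelled WT, a ratio of 1.11 (0.846 to 1.46) between the TA libraries. Between the libraries labelled DMD, Cox8a was 2.88-fold (2.33 to 3.58) and Cox8b 2.48-fold (2.23 to 2.77) higher in EOM. Cox7a2l, which joins complexes III and IV into supercomplexes, had 470 CPM in TA labelled DMD and 342 CPM in TA labelled WT (1.38-fold higher, 0.992 to 1.91). Cox7a1, the muscle form of subunit 7a, was scarce in myofibre-like cells, with 7 UMIs (42.7 CPM) in TA labelled DMD, 0 in TA labelled WT, 39 (93.7 CPM) in EOM labelled DMD and 7 (84.7 CPM) in EOM labelled WT.

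The promoters of the muscle forms Cox6a2 and Cox8b and of the common form Cox8a are shown because the muscle forms stand far higher in myofibre-like cells than in any other class, while Cox8a is well detected in all 4 classes plotted for it. The sequences are from RefSeq on build GRCr8, and no coordinate of the count tables, made on rn6, was used with them. Each runs from 250 bases before to 50 after the gene's start, on the minus strand of chromosome 1: chr1:192219667-192219966 for Cox6a2, chr1:205408224-205408523 for Cox8b and chr1:213833574-213833873 for Cox8a. Capitals mark E-boxes (CANNTG, the motif that MyoD-type factors bind) in Cox6a2 and Cox8b, and in Cox8a the core motif of ETS factors (CCGGAAG), which lies on the other strand and so reads as its reverse complement.
Cox6a2: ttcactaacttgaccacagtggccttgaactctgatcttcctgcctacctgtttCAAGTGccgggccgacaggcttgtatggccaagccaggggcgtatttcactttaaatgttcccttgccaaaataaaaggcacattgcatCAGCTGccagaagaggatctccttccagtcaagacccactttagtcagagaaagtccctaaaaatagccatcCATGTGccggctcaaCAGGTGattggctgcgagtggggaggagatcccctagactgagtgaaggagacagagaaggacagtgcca
Cox8b: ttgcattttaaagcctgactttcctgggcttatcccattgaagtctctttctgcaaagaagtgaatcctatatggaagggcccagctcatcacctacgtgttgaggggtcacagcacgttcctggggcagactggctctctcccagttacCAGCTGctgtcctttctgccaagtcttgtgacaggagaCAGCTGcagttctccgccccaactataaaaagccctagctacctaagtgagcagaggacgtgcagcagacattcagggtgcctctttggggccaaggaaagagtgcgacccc
Cox8a: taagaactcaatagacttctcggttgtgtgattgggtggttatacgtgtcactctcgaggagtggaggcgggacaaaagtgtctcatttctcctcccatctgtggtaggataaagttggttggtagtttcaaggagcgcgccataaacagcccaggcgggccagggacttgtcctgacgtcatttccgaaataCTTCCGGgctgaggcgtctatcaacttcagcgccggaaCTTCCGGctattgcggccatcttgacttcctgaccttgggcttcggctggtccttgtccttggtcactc
Both strands were searched. Cox6a2 held 4 E-boxes, Cox8b 2 and Cox8a 1, and 72.1% of the 33469 promoters of the table held at least 1, as did 65% of the 80 member promoters that matched by symbol. Cox8a held 2 ETS cores, a motif present in 26.2% of member promoters and 8.75% of all. The median GC content was 56% in member promoters and 51.7% in all, and a letter match is a description and not a binding site.

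In mural-like cells, 22 of 78 members were at least 1.5-fold lower and 0 higher in TA labelled DMD than in TA labelled WT, where 12% of all 3144 genes were lower and 9.92% higher. The median was -0.47, with medians of the counting bounds of -0.71 and -0.29, against -0.12 over all genes. At 2-fold, 3 members were lower, where 3.15% of all genes were. The complexes lay close together, between -0.28 (complex II) and -0.57 (complex I core). Cox4i2, the oxygen-responsive form of subunit 4, had 518 CPM in TA labelled DMD, 1354 in TA labelled WT, 1244 in EOM labelled DMD and 1964 in EOM labelled WT. Ndufa4l2, a hypoxia-induced relative of Ndufa4, had 499, 1306, 917 and 1858 CPM in the same libraries. Both were lowest in TA labelled DMD and highest in EOM labelled WT, and TA labelled WT and EOM labelled DMD lay between.

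Cox4i2 was 2.62-fold (2.43 to 2.82) and Ndufa4l2 2.61-fold (2.42 to 2.82) lower in TA labelled DMD than in TA labelled WT. In EOM, Cox4i2 was 1.58-fold (1.44 to 1.73) and Ndufa4l2 2.03-fold (1.83 to 2.25) lower in the library labelled DMD. Cox4i1, the common form, had 1075 CPM in TA labelled DMD and 1158 CPM in TA labelled WT, and 1126 CPM in EOM labelled DMD and 1232 CPM in EOM labelled WT, a far narrower span. Cox8a had 1175 CPM in TA labelled DMD and 2017 CPM in TA labelled WT (1.72-fold lower, 1.62 to 1.82). Atp5md, an accessory subunit of the ATP synthase, was 2.39-fold (2.05 to 2.77) and Atp5f1b 1.96-fold (1.80 to 2.12) lower in TA labelled DMD. Cox7a2l was at the other end, with 332 CPM in TA labelled DMD and 256 CPM in TA labelled WT.

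The mural-like class did not hold the same cells in each library. In TA labelled DMD 757 of its 1611 cells lay in an Rgs5-led cluster and 426 in a Myh11-led one, a smooth muscle myosin, while 120 of 180 cells in TA labelled WT, 102 of 157 in EOM labelled DMD and 71 of 90 in EOM labelled WT lay in a Vtn-led cluster. Both Cox4i2 and Ndufa4l2 are leading genes of that cluster. Within it, with 257 cells in TA labelled DMD, Cox4i2 had 1118 CPM in TA labelled DMD, 1623 in TA labelled WT, 2080 in EOM labelled DMD and 2510 in EOM labelled WT, and Ndufa4l2 had 1102, 1634, 1599 and 2411 CPM. In the Rgs5-led cluster of TA labelled DMD, Cox4i2 had 273 and Ndufa4l2 293 CPM. The member median in the Vtn-led cluster was -0.30 in TA, with 11 of 75 lower and 0 higher, where 8.61% of all genes were lower and 7.03% higher. Members held 2.30% of that cluster's UMIs in TA labelled DMD and 2.92% in TA labelled WT. In the Myh11-led cluster they held 2.72% in TA labelled DMD and 4.04% in TA labelled WT. The latter had 32 such cells, under the minimum set for a comparison, so its value is a description. The member difference was thus not smaller in each cluster than in the whole class. The isoform differences between the TA libraries were smaller within the Vtn-led cluster. They were -0.53 for Cox4i2 and -0.56 for Ndufa4l2 on the log2 scale, in place of -1.37 for each.

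In the other mural-like comparisons the shifts were smaller. EOM labelled DMD over EOM labelled WT had a median of -0.17 with 7 of 78 lower and 0 higher, where 10.5% of all genes were lower and 8.96% higher, so the count lay near the background. At 2-fold, 2 were lower, where 1.96% of all genes were. EOM labelled DMD over TA labelled DMD had a median of 0.30 with 9 of 76 higher and 0 lower, where 6.33% of all genes were higher and 5.77% lower, and at 2-fold 1 was higher, where 2.08% of all genes were. EOM labelled WT over TA labelled WT had a median of 0.04 with 1 of 78 lower and 0 higher, where 5.85% of all genes were lower and 5.01% higher. Cytosolic ribosomal protein genes again ran the other way in TA, with 41 of 63 higher in TA labelled DMD than in TA labelled WT and a median of 0.75. With those genes left out of the totals the member median was -0.41 in place of -0.47. Of the 11 hypoxia response genes only 3 passed the limits, and 2 were higher in TA labelled DMD, where Ndufa4l2 and Cox4i2 were lower. Bnip3, a mitophagy receptor, had 195 CPM in TA labelled DMD and 75.2 CPM in TA labelled WT. Ddit4, a stress-induced inhibitor of mTORC1, had 98.6 and 61.4 CPM. These are values of the whole class, whose clusters differed between the libraries, and a part of hypoxia was not tested.

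**Figure D4:**
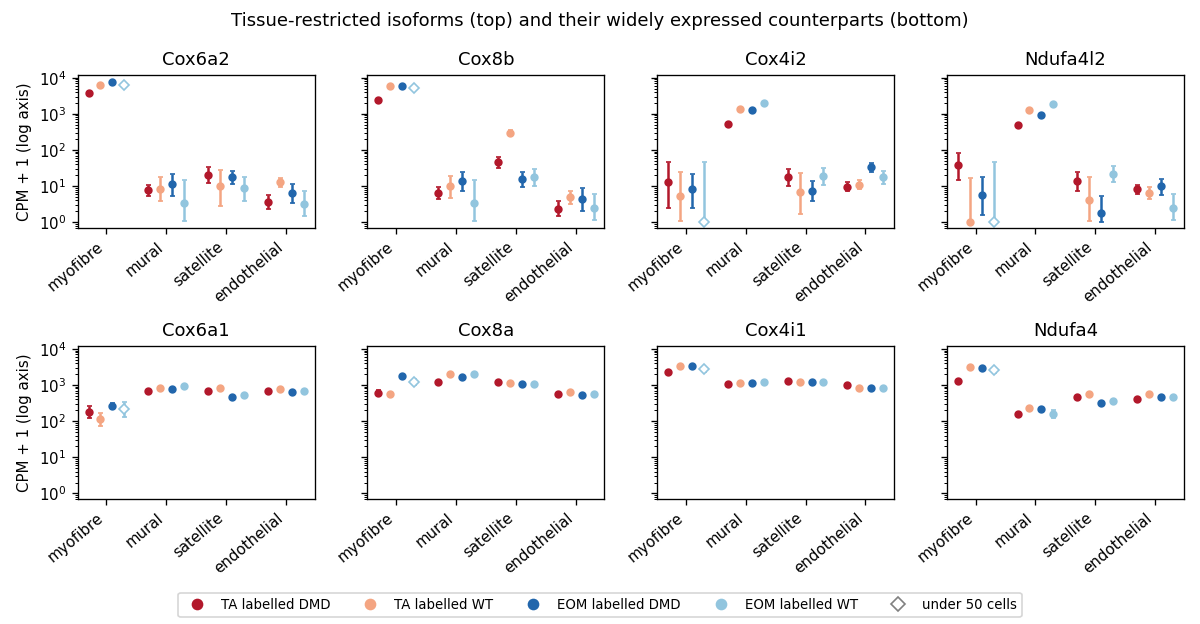
CPM plus 1 (log axis) of 4 tissue-restricted genes (top) and their widely expressed counterparts (bottom) in 4 classes and 4 libraries; bars are exact 95% counting intervals and open diamonds mark under 50 cells. Cox6a2 and Cox8b are high in myofibre-like cells and Cox4i2 and Ndufa4l2 in mural-like cells, where both are lowest in TA labelled DMD (518 and 499 CPM); Cox8b is also higher in satellite-like cells of TA labelled WT (292 CPM).

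Satellite-like cells differed little as a whole. In TA labelled DMD over TA labelled WT the median was -0.16, with 4 of 77 members lower and 1 higher, where 13.1% of all genes were lower and 10.6% higher. EOM labelled DMD over EOM labelled WT had a median of -0.07 and 1 of 75 lower, Ndufa3, and 0 higher, where 7.36% of all genes were lower and 4.11% higher. EOM labelled WT over TA labelled WT had a median of -0.32, against -0.13 over all genes, with 13 of 78 lower and 0 higher, where 11.8% of all genes were lower and 5.05% higher. At 2-fold 1 was lower, Cox8b, where 2.23% of all genes were. EOM labelled DMD over TA labelled DMD had a median of -0.18 with 5 of 75 lower and 0 higher, where 17.4% of all genes were lower and 6.96% higher. At 2-fold 0 were lower, where 6.22% of all genes were, and the median over all genes was -0.17. Atp5if1 was among the lowest in both EOM over TA comparisons, with 266 CPM in EOM labelled DMD against 458 in TA labelled DMD, and 274 CPM in EOM labelled WT against 466 in TA labelled WT. Sdhc was the member higher in TA labelled DMD, at 136 CPM against 75.1 CPM in TA labelled WT (1.81-fold, 1.16 to 2.92).

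Cox8b had the lowest ratio of all members in both satellite-like comparisons with TA labelled WT. It had 44.9 CPM in TA labelled DMD, 292 in TA labelled WT, 14.5 in EOM labelled DMD and 17.0 in EOM labelled WT, so TA labelled WT was high and the others low. It was 6.49-fold lower (4.37 to 9.84) in TA labelled DMD, and 17.1-fold lower (9.54 to 33.3) in EOM labelled WT, than in TA labelled WT. Of TA labelled DMD satellite-like cells 237 of 300 lay in a Ppp1r14b-led cluster, and most of those in the other libraries in an Nppc-led one. Among Nppc-led cells, the member median of TA labelled DMD over TA labelled WT was -0.23, against -0.05 over all genes. There 12 of 77 members were lower and 1 higher, where 418 of all 3117 genes were lower and 377 higher. Within the Nppc-led cluster, 5 of 63 cells in TA labelled DMD had a Cox8b UMI (7.94%), 24 of 50 in TA labelled WT (48%, exact Clopper-Pearson 33.7 to 62.6), 7 of 216 in EOM labelled DMD (3.24%) and 6 of 130 in EOM labelled WT (4.62%). Thinned to 1000 UMIs per cell, 2, 12, 1 and 1 cells of these libraries kept one, 3.17%, 24%, 0.463% and 0.775% of the cells.

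Endothelial-like cells, taken as a class that should lack this muscle isoform, had a Cox8b UMI in 0.255%, 0.906%, 0.896% and 0.371% of cells in the same order of libraries, at median depths of 1761, 2283, 2557 and 2202 UMIs. Mural-like cells had one in 1.06%, 3.33%, 3.18% and 1.11% of cells, at median depths of 1218, 4036, 3639 and 3916 UMIs. FAP/fibroblast-like cells had one in 1.66% in TA labelled DMD, 2.19% in EOM labelled DMD and 1.73% in EOM labelled WT. The 20 FAP/fibroblast-like cells of TA labelled WT were high, with a Cox8b UMI in 6 (30%, 11.9 to 54.3) and a Cox6a2 UMI in 7 (35%, 15.4 to 59.2). In those 20 cells, fibre-marker genes made up 1.35% of the UMIs of cells with Cox8b and 0.771% of those without. Both values are above the 0.0179% of the Nppc-led cells of TA labelled WT. The source of the Cox8b UMIs in either set of cells was not tested. The median depths of the Nppc-led cells were 6871, 6882, 5146.5 and 5907.5 UMIs. Cox6a2, the other fibre isoform, was seen in 2 of the 50 Nppc-led cells of TA labelled WT (4%), far fewer than Cox8b. Fibre-marker genes made up 0.0416%, 0.0179%, 0.0225% and 0.0208% of the Nppc-led cells' UMIs in the same order, lowest in TA labelled WT. Singling out Cox8b in single cells was decided after its values were seen.

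Endothelial-like cells, the most numerous class, differed little. The median was -0.13 in TA labelled DMD over TA labelled WT, against -0.06 over all genes, with 3 of 74 lower and 0 higher, where 7.05% of all genes were lower and 6.35% higher. These were Ndufa3, at 55.7 CPM in TA labelled DMD and 111 CPM in TA labelled WT (a log2 ratio of -0.89), Atp5me, at 190 against 360 CPM, and Atp5md, at 156 against 252 CPM. At the other end, Cox7a2l had 368 CPM in TA labelled DMD and 260 CPM in TA labelled WT (1.42-fold higher, 1.31 to 1.53). In EOM labelled DMD over EOM labelled WT the median was -0.03 with 0 of 73 lower or higher, where 5.35% of all genes were lower and 4.64% higher. EOM labelled WT over TA labelled WT had a median of -0.15 and 1 of 74 lower, Ndufa3 again, and 0 higher, where 2.27% of all genes were lower and 2.12% higher. EOM labelled DMD over TA labelled DMD had a median of -0.09 and 0 of 74 past 1.5-fold in either direction, where 5.52% of all genes were lower and 4.6% higher.

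**Figure D5:**
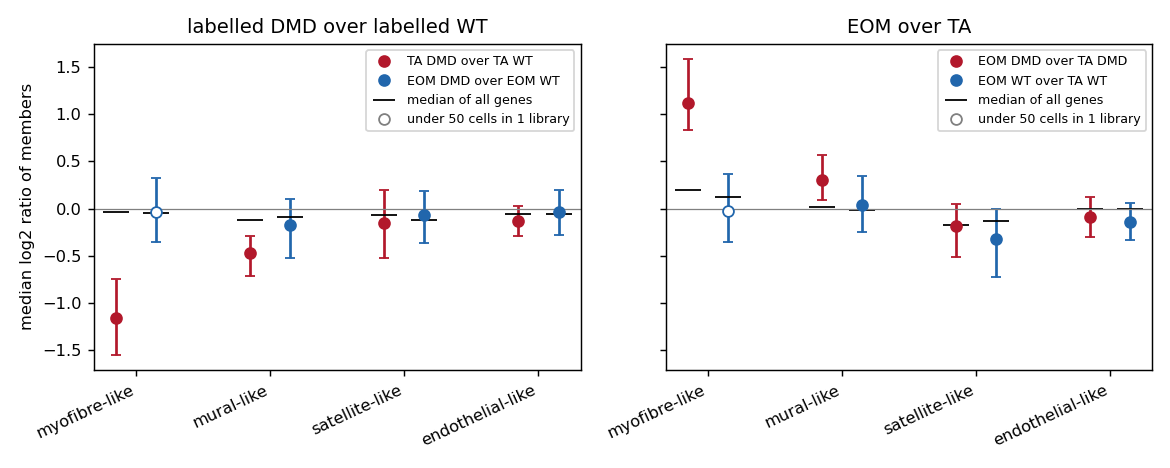
Median log2 ratio of the members that passed, by class, for libraries labelled DMD over those labelled WT (left) and EOM over TA (right); bars join the medians of the members' own 95% counting bounds, dashes mark the median over all genes and open circles comparisons with under 50 cells in 1 library. Of the 4 classes shown, myofibre-like cells have the medians farthest from 0, at -1.16 in TA and 1.12 between the libraries labelled DMD.

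A few members behaved alike over these classes. Atp5md, Ndufa3 and Ndufb4 were among the lower members of several DMD over WT comparisons, and Cox7a2l had the highest ratio of TA labelled DMD over TA labelled WT in both mural-like and endothelial-like cells. These comparisons share libraries, and label and library cannot be told apart. In the remaining classes with at least 50 cells in both libraries, members differed little between EOM labelled DMD and TA labelled DMD, with medians of -0.14 in FAP/fibroblast-like, 0.18 in Schwann-like, -0.07 in macrophage/monocyte-like and 0.06 in tenocyte-like cells. In FAP/fibroblast-like cells of EOM labelled DMD over EOM labelled WT the median was -0.01. The lesser Cox6b1 row (ENSRNOG00000034161) was the lowest member between EOM labelled DMD and TA labelled DMD in each of these 4 classes, from -0.60 in macrophage/monocyte-like to -1.06 in tenocyte-like cells. The other Cox6b1 row (ENSRNOG00000024309) ran from -0.08 to 0.39 in the same classes, so the rows of this symbol did not move together.

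Erythroid-like cells were a special case. Members were higher in TA labelled DMD than in TA labelled WT in 53 of 54 rows, with a median of 2.58, but 94% of all genes were higher too. Hemoglobin made up 20.7% of the class's UMIs in TA labelled DMD and 63.2% in TA labelled WT, so the count says nothing particular about the members.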

How the data were processed

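Total cells of 4 rat muscle libraries were run on the 10x Genomics droplet system with 3' chemistry version 3.1, per the labels' protocols. The authors deposited whole-number UMI counts per gene and barcode, not normalized, made, per the file headers, by Cell Ranger 4.0.0, on rn6 per the submitters' processing notes. How reads were filtered, which annotation was used and how cells were called is not given in the sources used here. Barcodes with at least 500 UMIs, 200 genes and at most 20% mitochondrial UMIs were kept, 14233 of 17504. Scrublet marked 29 doublets, too few for a working call, so the highest scores up to 0.8% per 1000 cells were removed (676 cells). The libraries were clustered together without integration in scanpy 1.11.5 (10000 per cell, 2000 genes, 30 components, 15 neighbours, Leiden resolution 1), giving 32 clusters. They were named from markers of 18 cell types, and 3 stayed unnamed. The unnamed clusters hold 13.3% of TA labelled DMD, 0.576% of TA labelled WT, 1.19% of EOM labelled DMD and 0.480% of EOM labelled WT, and libraries share 10 cell barcodes.

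Counts were summed per class and library and divided by the class total (CPM). Log2 ratios used a prior of 10 CPM, and a called member was past 1.5-fold. CPM have exact Poisson intervals, shares Clopper-Pearson and folds exact binomial intervals. With 1 library per group no test was run, a model with additive muscle and label terms was not fitted, and the steps were checked on simulated counts. Members and gene lists were chosen with earlier results of these data known. The genes named were the isoform pairs, the Sdh genes, the member of each complex highest in endothelial-like cells (from which some are not described), the 5 most class-restricted, and the 3 highest and lowest per comparison in the endothelial-like, mural-like and satellite-like classes. Other members were picked after their values were seen. A member the rule names in the endothelial-like class is not reported here. Alternatives changed the prior, the filters, doublets, resolution, depth, totals, averaging and the cells or clusters used.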

Additional observations from a re-analysis of the deposited data

How the results depend on the processing

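Over 29 results, 231 alternative values were computed. Of these, 220 moved by less than the interval of the result or, for counts, within 1.5 times. A further 11 moved more, and 0 were counted as reversed. Single endothelial-like clusters differed in sign, however. For TA labelled DMD over TA labelled WT, the Aqp1-led clusters had medians of -0.16 and 0.08. The value of 0.08 lay outside the class's medians of the counting bounds, -0.28 and 0.03, which describe single members and not the list median. The Rgcc-led had -0.13 and the Cldn5-led -0.05. For EOM labelled DMD over EOM labelled WT, 1 Aqp1-led cluster had 0.04, the Rgcc-led -0.02 and the Cldn5-led -0.10. No paired analysis was possible because each group holds 1 library. At 2-fold in place of 1.5-fold, the count of lower members in mural-like cells was 3 in place of 22 in TA labelled DMD over TA labelled WT and 2 in place of 7 in EOM labelled DMD over EOM labelled WT. The count of higher members there was 1 in place of 9 in EOM labelled DMD over TA labelled DMD. In satellite-like cells the count of lower members was 1 in place of 13 in EOM labelled WT over TA labelled WT and 0 in place of 5 in EOM labelled DMD over TA labelled DMD. In erythroid-like cells the median of TA labelled DMD over TA labelled WT was 1.39 with cells thinned to 1000 UMIs, 1.49 as a mean of per-cell CPM and 2.34 with genes of at least 10 CPM, in place of 2.58. EOM labelled WT over TA labelled WT was -2.14, -1.33 and -0.92 in place of -0.35, and the cause was not tested. The myofibre-like median of TA labelled DMD over TA labelled WT ran from -1.39 among Myh4-led cells to -0.97 as a mean of per-cell CPM, and that of EOM labelled DMD over TA labelled DMD from 0.97 to 1.36. The mural-like median in TA ran from -0.51 to -0.30. The stricter cell filter left too few cells for the myofibre-like class, for both mural-like comparisons with EOM labelled WT and for satellite-like cells of TA labelled WT, and thinning too few myofibre-like cells, so those were not run. Alternatives with ribosomal genes left out, single clusters or subsets of myofibre-like cells were added after seeing the data. Rows such as Cox7a1 and Sdha had low counts in myofibre-like cells, which limits what their values can show. The cause of the low counts was not tested.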
